A study of Mus musculus with 13 samples.

Results

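The 33 genes described here encode subunits of the receptors for glutamate and for GABA, the main excitatory and inhibitory transmitters of the brain. They were chosen by gene symbol, as genes of these receptor families with lines in both deposited count tables, and all 33 were found among 23238 symbols in tissue and 24542 in culture. They comprise 4 AMPA, 6 NMDA, 5 kainate and 1 delta receptor subunits, 6 metabotropic glutamate receptors, 9 GABA-A subunits and 2 GABA-B subunits. Grin3b, another NMDA subunit, was left out because its tissue counts did not follow library depth. It had 193, 89.0, 102 and 56.6 CPM, a unit of count relative to library depth, in N+F libraries and 83.4, 147 and 162 CPM in control libraries.

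RNA sequencing covered 13 mouse libraries. In 7 of them the RNA came from hippocampus of 3xTg mice, an Alzheimer disease model that combines human APP and tau transgenes, driven by the neuronal Thy1 promoter, with a mutant presenilin knock-in. The N+F group held 4 libraries from mice given adeno-associated virus 9 (AAV9) carrying the transcription factors Nurr1 (Nr4a2) and Foxa2, and the control group held 3 libraries from mice given control AAV9. Amyloid beta is listed as the treatment of all 7. The other 6 libraries came from glia cultured from ICR pups of postnatal day 1, with 1 library for each condition and region. For hippocampal and for cortical glia, the conditions were an N+F lentivirus with amyloid beta (N+F), a control lentivirus with amyloid beta (amyloid beta control) and a control lentivirus with no amyloid beta (untreated). The labels give no age for the 3xTg mice and do not say whether a library pools animals. They also do not say that replicates are separate animals, so p-values reflect only how far these libraries spread, and that spread could be technical.

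AMPA receptors carry most fast excitatory transmission in the hippocampus, NMDA receptors pass calcium and drive synaptic plasticity, and kainate receptors act at both presynaptic and postsynaptic sites, prominently at mossy fibre synapses. GABA-A receptors are chloride channels assembled mainly from alpha, beta and gamma or delta subunits, and they mediate synaptic and tonic inhibition. Metabotropic glutamate (mGlu) receptors and GABA-B receptors signal through G proteins.

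Tissue libraries held 10194437 to 25139406 counts and culture libraries 52189025 to 78273121. All 33 members were counted in each tissue library and in both untreated cultures. In tissue, no marker of CA pyramidal neurons (6 genes) or dentate granule neurons (6 genes) was at 0 in any library. In culture, the 8 astrocyte markers were counted in all 6 libraries, with summed levels of 5438 to 8919 CPM. The untreated libraries labelled as glia also held neuronal transcripts: the 9 neuron markers summed to 286 CPM in N+F, 378 CPM in amyloid beta control and 6488 CPM in untreated hippocampal glia. In cortical glia these sums were 359 CPM in N+F, 329 CPM in amyloid beta control and 7033 CPM in untreated cells.

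In 3xTg hippocampus 1 of the 33 members passed the test. Gabra5, the alpha5 subunit of extrasynaptic GABA-A receptors that hold tonic inhibition in hippocampal pyramidal neurons, fell to 18.9 ± 3.17 CPM in N+F libraries, against 38.6 ± 2.47 CPM in control libraries (SD, n = 4 and n = 3). Most other subunits, including the abundant Gria1, Grin1, Gabra2 and Gabbr1, had overlapping groups and log2 fold changes near 0. Tissue levels are CPM scaled by trimmed mean of M values (TMM), and the test was edgeR's quasi-likelihood test with Benjamini-Hochberg adjustment over 15523 genes at a threshold of 0.05. All 33 members passed the filter on low counts. By this rule 0.103% of all genes tested were called lower in N+F and 0.00644% higher. The members' median log2 fold change, N+F over control, was 0.023, with 14 negative and 19 positive, beside a median of -0.0044 and 50.8% negative over all genes tested.

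At an unadjusted p under 0.05, 4 members were lower in N+F (Gabra5, Grin2a, Grik4 and Gabbr2) and 1 was higher (Gabrg1), beside 4.36% lower and 4.1% higher over all genes. In the same 5 members the N+F and control libraries did not overlap, and over all genes 4.19% had every N+F library below every control and 3.92% every one above. In bulk tissue, fewer cells of a type and less RNA per cell cannot be told apart.

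**Figure D1:**
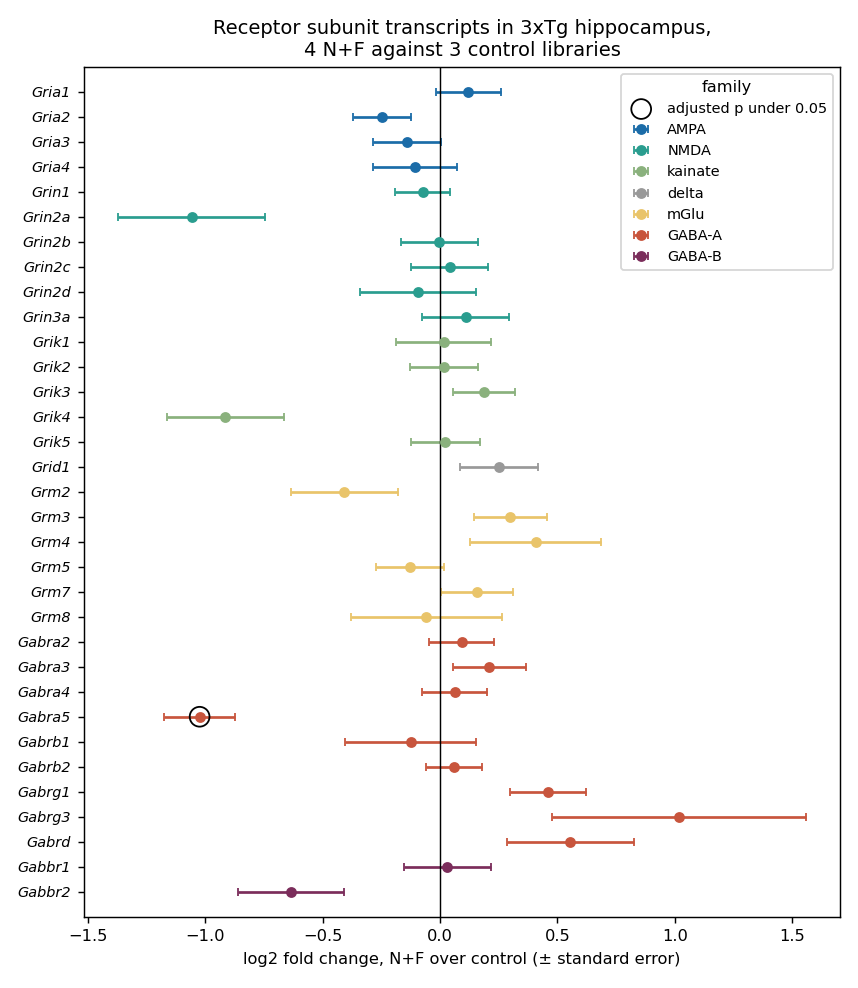
Log2 fold change of each of the 33 members in 3xTg hippocampus, N+F over control, with its standard error (4 N+F and 3 control libraries), grouped by receptor family. Gabra5 at -1.02 is the member past the adjusted threshold; Grin2a, Grik4 and Gabbr2 lie below 0 and Gabrg1 above 0 without passing it, and the other members with positive values above 0.5, Gabrg3 and Gabrd, have wide errors.

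Among AMPA subunits, Gria1, which supports activity-dependent synaptic strengthening, was the most abundant. It had 446, 515, 586 and 552 CPM in N+F libraries and 502, 508 and 438 CPM in control libraries, a log2 fold change of 0.12 ± 0.14 (adjusted p = 0.881, edgeR). The groups overlapped, with N+F library 1 and control library 3 lowest. Gria2, the subunit whose edited form makes AMPA receptors impermeable to calcium, had 128, 123, 127 and 122 CPM in N+F libraries and 148, 128 and 170 CPM in control libraries. N+F library 1 and control library 2 met at 128 CPM, and the log2 fold change of -0.25 ± 0.12 did not pass (adjusted p = 0.641, edgeR). Gria3 and Gria4, the other pore-forming subunits, had log2 fold changes of -0.14 and -0.11. The make-up of the AMPA family was alike in kind in both groups: Gria1 took 68.3, 73.3, 74.7 and 71.9% of AMPA subunit counts in N+F libraries and 67.3, 71.7 and 63.5% in control libraries. Counts are not corrected for transcript length in such shares, and the groups overlapped.

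Of 6 NMDA subunits none passed, and 1 stood apart between groups. Grin2a, the GluN2A subunit that is added to synaptic NMDA receptors as the forebrain matures, had 3.41, 2.24, 4.84 and 5.12 CPM in N+F libraries and 6.48, 6.93 and 11.1 CPM in control libraries. All N+F libraries lay below all controls, with control library 3 well above the other controls. The log2 fold change was -1.06 ± 0.31 (adjusted p = 0.308, edgeR), and it rested on 25 to 64 counts per N+F library and 83 to 181 per control library. Grin1, the obligatory subunit of all NMDA receptors, had 184, 181, 181 and 160 CPM in N+F libraries and 177, 178 and 202 CPM in control libraries. Its groups overlapped at a log2 fold change of -0.073 ± 0.12. Grin2b, the GluN2B subunit abundant in the developing forebrain, averaged 89.7 ± 19.6 CPM in N+F libraries and 89.8 ± 7.36 CPM in control libraries (SD, n = 4 and n = 3). Grin2a made up 3.46, 2.62, 4.10 and 7.12% of Grin2a plus Grin2b counts in N+F libraries and 7.38, 6.84 and 10.6% in control libraries, and N+F library 4 overlapped control library 2. Grin2c, Grin2d and Grin3a had log2 fold changes of 0.042, -0.093 and 0.11.

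Among kainate subunits, Grik4 stood apart in the same direction as Grin2a. Grik4, the high-affinity GluK4 subunit enriched in CA3 pyramidal neurons, had 13.96, 5.64, 11.3 and 10.2 CPM in N+F libraries and 20.7, 21.4 and 15.6 CPM in control libraries. The groups did not overlap, but N+F library 1 and control library 3 came within a few CPM of each other, and the log2 fold change of -0.91 ± 0.25 did not pass (adjusted p = 0.278, edgeR). Grik5, the GluK5 subunit that pairs with GluK1 to GluK3, had 174, 156, 184 and 124 CPM in N+F libraries and 149, 151 and 171 CPM in control libraries. Its groups overlapped at a log2 fold change of 0.023 ± 0.15. Grik1, Grik2 and Grik3, which form channels on their own, lay at 0.016, 0.018 and 0.19. Grik4 took 4.23, 1.96, 3.47 and 3.78% of kainate subunit counts in N+F libraries and 6.88, 7.59 and 5.004% in control libraries, so its share was lower in each N+F library than in any control. Grid1, a delta receptor that links synapses rather than opening to glutamate, had a log2 fold change of 0.25 ± 0.16 with overlapping groups.

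None of the 6 mGlu receptors passed, and none had groups that stood apart. Grm5, the postsynaptic receptor coupled to phospholipase C, was the most abundant by CPM, with 43.5, 31.8, 43.6 and 39.8 CPM in N+F libraries and 43.2, 38.3 and 48.3 CPM in control libraries. Its log2 fold change was -0.13 ± 0.15, and the groups overlapped. The inhibitory autoreceptors and heteroreceptors Grm2, Grm3, Grm4, Grm7 and Grm8, which lower cyclic AMP, ranged from -0.41 for Grm2 to 0.41 for Grm4.

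Of 9 GABA-A subunits, 7 had positive log2 fold changes and Gabra5 and Gabrb1 negative ones. Gabra5 had 15.8, 17.2, 19.9 and 23.0 CPM in N+F libraries and 37.4, 36.9 and 41.4 CPM in control libraries. Every N+F library lay far below every control, and no library of either group stood far from its own group. The log2 fold change was -1.02 ± 0.15 (adjusted p = 0.0371, edgeR's quasi-likelihood test), the ninth smallest p of all genes tested, on 157 to 287 counts per N+F library and 442 to 1044 per control library. DESeq2 also called it (adjusted p = 9.11e-06).

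The Gabra5 call rested on most of the libraries. With edgeR, the adjusted p was 0.112 without N+F library 1, 0.145 without N+F library 2, 0.143 without N+F library 3 and 0.0571 without N+F library 4. It was 0.136 without control library 2 and 0.0923 without control library 3, and it passed without control library 1 (0.0349). With 1 library left out in turn, the log2 fold change lay between -1.13 and -0.95. Among the alpha subunits Gabra2 to Gabra5, Gabra5 took 5.50, 5.65, 5.22 and 7.31% of counts in N+F libraries and 11.7, 11.3 and 13.4% in control libraries, which did not overlap.

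The start of Gabra5 is shown because it is the member that passed the test. The 250 bases before its start site, from RefSeq on GRCm38.p6 (chr7:57510060-57510309, minus strand), are printed 5′ to 3′, and capitals mark a CCAAT box (letters CCAAT on either strand).
Gabra5: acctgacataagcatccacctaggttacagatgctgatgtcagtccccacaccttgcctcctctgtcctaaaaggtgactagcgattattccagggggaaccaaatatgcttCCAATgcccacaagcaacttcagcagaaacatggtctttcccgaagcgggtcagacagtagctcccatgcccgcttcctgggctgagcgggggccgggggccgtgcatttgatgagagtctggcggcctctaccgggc
The first base of the CCAAT match lies 138 bases before the start site. The same letters were in 37.4% of all 32851 mouse promoter windows of 300 bases and in 11 of the 30 windows that matched members. By gene order Gabra5 lies next to Gabrg3 on chromosome 7. Its neighbour Gabrg3, a gamma subunit, had 0.803, 0.626, 1.68 and 2.32 CPM in N+F libraries and 0.823, 0.668 and 0.474 CPM in control libraries, with overlapping groups and 6 to 29 counts per library.

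The other GABA-A subunits did not share the Gabra5 pattern by value. Gabra2, the alpha2 subunit of synapses on pyramidal cells, had 180, 177, 237 and 176 CPM in N+F libraries and 178, 196 and 168 CPM in control libraries. Apart from the high N+F library 3 the groups coincided, and the log2 fold change was 0.093 ± 0.14. Gabrg1, a gamma subunit also made by astrocytes, had 16.9, 13.6, 16.99 and 16.5 CPM in N+F libraries and 13.1, 10.1 and 11.5 CPM in control libraries. All N+F libraries lay above all controls, with N+F library 2 just above control library 1, and the log2 fold change of 0.46 ± 0.16 did not pass (adjusted p = 0.428, edgeR). Gabrd, the delta subunit of tonic receptors in dentate granule cells, had 36.4, 41.1, 43.6 and 24.6 CPM in N+F libraries and 17.3, 19.3 and 37.9 CPM in control libraries. Control library 3 lay within the N+F range, and the log2 fold change of 0.56 ± 0.27 did not pass (adjusted p = 0.633, edgeR). Gabra3, Gabra4, Gabrb1 and Gabrb2 ranged from -0.13 for Gabrb1 to 0.21 for Gabra3.

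The obligate GABA-B partners differed in their values. Gabbr1, which binds the transmitter, had 427, 335, 560 and 499 CPM in N+F libraries and 363, 466 and 508 CPM in control libraries, with overlapping groups and a log2 fold change of 0.031 ± 0.18. Gabbr2, which couples the receptor to G proteins, had 32.2, 19.3, 38.8 and 44.9 CPM in N+F libraries and 46.2, 53.9 and 57.5 CPM in control libraries. Its groups did not overlap but were adjacent, and the log2 fold change of -0.63 ± 0.23 did not pass (adjusted p = 0.440, edgeR). Gabbr2 took 7.01, 5.46, 6.48 and 8.25% of GABA-B counts in N+F libraries and 11.3, 10.4 and 10.2% in control libraries, and these shares did not overlap.

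**Figure D2:**
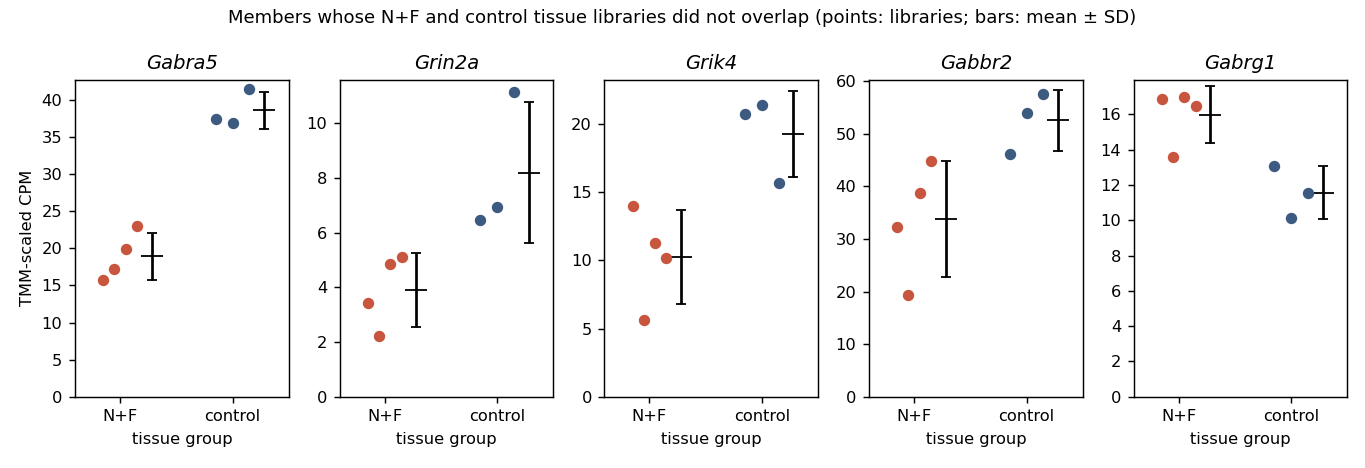
TMM-scaled CPM of the 5 members whose tissue groups did not overlap, with N+F libraries left and control libraries right; points are libraries and bars give mean ± SD (n = 4 and n = 3). Gabra5 has the widest gap, with 15.8 to 23.0 CPM in N+F libraries and 36.9 to 41.4 CPM in control libraries, and Gabrg1 is the one that is higher in N+F.

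Summed levels of some cell type markers also stood apart between the groups, although few single markers were called. The 6 CA pyramidal markers summed to 179 to 201 CPM in N+F libraries and 205 to 303 CPM in control libraries, and edgeR called 3 of them lower (Fibcd1, Spink8 and Neurod6). Of the other CA pyramidal markers, Wfs1 had a log2 fold change of 0.44, Mpped1 -0.18 and Dkk3 -0.58, none of them called. The 5 dentate granule markers that passed the filter summed to 20.5 to 33.3 CPM in N+F libraries and 33.8 to 91.7 CPM in control libraries, without a call. The 9 inhibitory neuron markers summed to 976 to 1173 CPM in N+F libraries and 749 to 878 CPM in control libraries, with 7 of 9 positive and no call. The 11 striatal markers summed to 1825 to 3026 CPM in N+F libraries and 547 to 2507 CPM in control libraries, and all 11 were positive without a call. All log2 fold changes of vessel markers were negative: 6 endothelial genes summed to 19.9 to 27.0 CPM in N+F libraries and 30.1 to 46.3 CPM in control libraries, without a call, and 8 mural and fibroblast genes to 72.9 to 99.01 CPM in N+F libraries and 96.7 to 409 CPM in control libraries, where the ranges overlapped and 1 gene was called lower. No gene of these lists was at 0 in any library, and pan-neuronal markers overlapped at 4394 to 5746 CPM in N+F libraries and 4855 to 5603 CPM in control libraries. All values were also negative for 6 oligodendrocyte precursor, 7 oligodendrocyte and 5 choroid plexus markers, as were 6 of 8 for astrocytes and for microglia, without a call. Choroid plexus sums ran from 163 to 3934 CPM in N+F libraries and from 1132 to 2854 CPM in control libraries. The part of these markers in the values of Gabra5, Grin2a, Grik4 and Gabbr2 was not tested.

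Levels between genes were compared per kilobase of the longest protein-coding transcript. The transcripts behind the counts are not known, so a gene counted on a shorter transcript would stand too low in this order. In that scale Gria1 stood first, at 94.6 ± 10.9 CPM per kilobase in N+F libraries and 87.0 ± 6.96 in control libraries (SD, n = 4 and n = 3). Gabbr1 was next, at 86.8 ± 18.5 in N+F libraries and 84.9 ± 14.2 in control libraries, within the spread of Gria1. Grin1 and Grik5 followed at 41.3 ± 2.63 and 42.4 ± 7.11 in N+F libraries and 43.5 ± 3.35 and 41.7 ± 3.31 in control libraries, and they could not be told apart. Gabra2 came next at 32.9 ± 5.04 in N+F libraries and 30.9 ± 2.39 in control libraries. Gabra5 lay further down, at 7.09 ± 1.19 in N+F libraries and 14.4 ± 0.926 in control libraries. Grin2a and Gabrg3 were last: Grin2a had 0.267 ± 0.0914 in N+F libraries and 0.559 ± 0.176 in control libraries, and Gabrg3 0.139 ± 0.0809 in N+F libraries and 0.0671 ± 0.0179 in control libraries.

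Genes that work with the receptors were read from 4 further lists, of which 69 of 75 genes were tested. None was called by edgeR, and DESeq2 called 1 of them, Shisa6, beside 147 of all genes. At an unadjusted p under 0.05 in edgeR, 11 were counted, 6 lower and 5 higher, beside 1313 of the 15523 genes tested. Of 19 auxiliary subunits, Shisa6, an AMPA receptor partner that slows desensitization, had 9.24, 7.42, 8.79 and 12.1 CPM in N+F libraries and 16.97, 15.5 and 18.3 CPM in control libraries, with no overlap (log2 fold change -0.85 ± 0.18, adjusted p = 0.195, edgeR). Cacng5, an AMPA receptor auxiliary protein, had a log2 fold change of 0.65. Of 23 scaffold and signalling genes, 13 were negative and the median was -0.052. Among these the postsynaptic scaffold Shank2 had a log2 fold change of -0.59 ± 0.16, with groups that did not overlap. Of 20 transport and metabolism genes the median was 0.083. There Gad2, which makes GABA, stood at 0.43 ± 0.13 and Slc32a1, which loads it into vesicles, at 0.55 ± 0.18, again with no overlap. Both are also on the inhibitory neuron marker list. Of 7 tested genes among 13 other receptor subunits, Gabrq, the GABA-A theta subunit, had a log2 fold change of 0.92 ± 0.35, with overlapping groups.

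In the libraries labelled as cultured glia, the receptor subunits were lower nearly across the board in amyloid beta control than in untreated libraries. The 9 neuron markers summed to 6488 CPM in the untreated hippocampal and 7033 CPM in the untreated cortical library. In tissue they summed to 4394 to 5746 TMM-scaled CPM in N+F libraries and 4855 to 5603 in control libraries. The part of neuronal RNA in the culture ratios was not tested. With 1 library per condition and region there is no test within a region, and a member was counted where the ratio of CPM + 1 passed 2-fold in one direction in both regions and 1 or both libraries of every pair had at least 1 CPM. By this rule 31 of 33 members were lower and 0 higher, beside 21.5% of all genes lower and 16.6% higher. The members' median log2 ratio was -4.57 in hippocampal and -4.27 in cortical glia, and over all genes it was -0.027 and -0.0065. The members summed to 444 CPM in amyloid beta control and 5643 CPM in untreated hippocampal glia, and to 538 CPM in amyloid beta control and 4896 CPM in untreated cortical glia. Members at 1 CPM or more numbered 15 in amyloid beta control and 33 in untreated hippocampal glia, and 21 in amyloid beta control and 33 in untreated cortical glia.

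On the log2 scale of CPM + 1, which holds back the ratios of members near 0, the 3 members with the largest mean ratios were Grin1, Gabrb2 and Gabbr2. Grin1 had 0.629 CPM in amyloid beta control and 603 CPM in untreated hippocampal glia, a 958-fold lower level (95% counting interval 720.2 to 1304). In cortical glia it had 1.47 CPM in amyloid beta control and 553 CPM in untreated cells, 377-fold lower (306.5 to 470.0). Gabrb2, the beta2 subunit of the commonest GABA-A receptors, had 0.468 CPM in amyloid beta control and 223 CPM in untreated hippocampal glia, and 0.873 CPM in amyloid beta control and 324 CPM in untreated cortical glia. Gabbr2 had 0.294 CPM in amyloid beta control and 190.0 CPM in untreated hippocampal glia, and 0.807 CPM in amyloid beta control and 186 CPM in untreated cortical glia. All 3 were counted in both amyloid beta controls, with 22 to 89 counts per library, and had 9721 to 40721 counts in the untreated libraries. Gabra5, the member that fell in tissue, had 0.0669 CPM in amyloid beta control and 203 CPM in untreated hippocampal glia, 3029.6-fold lower on 5 counts (1298 to 9332). In cortical glia it had 0.0823 CPM in amyloid beta control and 45.01 CPM in untreated cells, 547-fold lower on 5 counts (234 to 1685). Such intervals cover counting error only, not differences between cultures.

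Several members had no count at all in the amyloid beta controls. Grin2a was at 0 in both, and with a floor of 3 counts per library it was at least 815-fold lower in hippocampal and at least 456-fold lower in cortical glia, against 32.7 and 22.5 CPM in the untreated libraries. Gabrd was also at 0 in both, at least 567-fold and 1526-fold lower. Gabrg3 was at 0 in both too, against only 2.65 CPM in untreated hippocampal and 3.10 CPM in untreated cortical glia. Grm2, a presynaptic autoreceptor, was at 0 in the hippocampal amyloid beta control alone, against 56.0 CPM in the untreated library.

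The exceptions were Gria3 and Grik5, which fell short of 2-fold in at least 1 region. Gria3 had 129 CPM in amyloid beta control and 236 CPM in untreated hippocampal glia, and 122 CPM in amyloid beta control and 368 CPM in untreated cortical glia (log2 ratios -0.86 and -1.58). Grik5 had 160 CPM in amyloid beta control and 271 CPM in untreated hippocampal glia, and 163 CPM in amyloid beta control and 241 CPM in untreated cortical glia (log2 ratios -0.76 and -0.56). The closest member inside the rule was Gabrb1, at -1.13 and -1.16. Gria3 and Grik5 were the most abundant members in both amyloid beta controls and, with Gabbr1, made up most of the members' summed CPM there. Gria3 took 67.8% of AMPA subunit counts in amyloid beta control (95% Wilson interval 67.0 to 68.6%) and 10.4% in untreated hippocampal glia (10.2 to 10.55%). In cortical glia it took 53.8% in amyloid beta control (53.0 to 54.6%) and 23.0% in untreated cells (22.7 to 23.3%). Grik5 took 93.5% of kainate subunit counts in amyloid beta control (93.1 to 93.9%) and 56.2% in untreated hippocampal glia (55.7 to 56.7%).

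**Figure D3:**
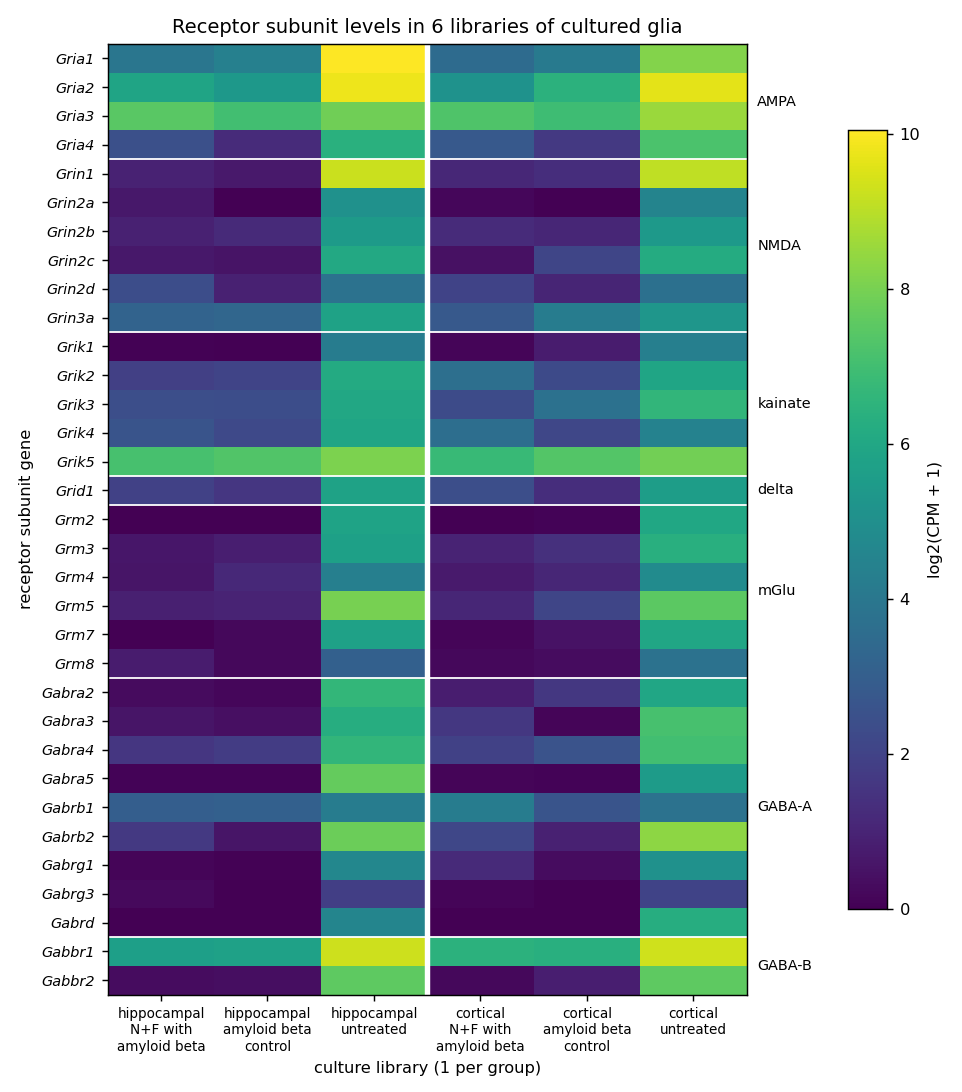
Log2(CPM + 1) of the 33 members in the 6 culture libraries, ordered N+F, amyloid beta control and untreated within hippocampal (left) and cortical (right) glia. Both untreated columns are bright for nearly all members, while in the other columns mainly Gria3, Grik5, Gria2 and Gabbr1 keep high values, such as 129 CPM of Gria3 in the hippocampal amyloid beta control.

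Markers of several cell types were also lower in the amyloid beta controls, and those of others were mixed. Of the 9 neuron markers 8 were lower by the same rule, from the summed levels given above. All 7 oligodendrocyte markers were lower, with sums of 299 CPM in amyloid beta control and 9066 CPM in untreated hippocampal glia and 172 CPM in amyloid beta control and 7636 CPM in untreated cortical glia. Choroid plexus markers, 5 genes, summed to 2.72 CPM in amyloid beta control and 4340.4 CPM in untreated hippocampal glia, with 4 of 5 lower by the rule, and all 6 endothelial markers were lower. Astrocyte markers summed to 7552 CPM in amyloid beta control and 7036 CPM in untreated hippocampal glia, and to 8919 CPM in amyloid beta control and 8473 CPM in untreated cortical glia. By the rule 3 of the 8 astrocyte markers were higher and 2 lower, so the sums hide moves in both directions. Of 8 mural and fibroblast markers 2 were higher and 4 lower. Their sums were 1258 CPM in amyloid beta control and 361 CPM in untreated hippocampal glia. In cortical glia the sums were 494 CPM in amyloid beta control and 332 CPM in untreated cells. Of 6 thalamic markers 1 was higher and 3 lower, and of 6 oligodendrocyte precursor markers 3 were lower and 0 higher. Whether the cultures held different shares of neurons was not tested, and 1 library per group means that amyloid beta and the culture cannot be told apart.

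An additive edgeR fit of region and condition, with 2 residual degrees of freedom over 16762 genes, called 31 members lower in amyloid beta control, beside 17.2% of all genes lower and 15.9% higher. The edgeR fit did not call Grik5 (adjusted p = 0.0788) or Gabrb1 (adjusted p = 0.193). It called Gria3 at a log2 fold change of -1.21 (adjusted p = 0.0285, edgeR). In that fit the regions stand in for replicates.

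Genes of the 4 further lists were lower in part. By the 2-fold rule all 5 other receptor subunits that met the minimum were lower, and 15 of 23 scaffold and signalling genes were lower and 0 higher. Of 19 auxiliary subunits 12 were lower and 1 higher, and of 20 transport and metabolism genes 13 were lower and 1 higher. Over all genes 21.5% were lower and 16.6% higher by this rule. Slc17a7, the vesicular glutamate transporter of cortical and hippocampal excitatory neurons, had 1.49 CPM in amyloid beta control and 1219 CPM in untreated hippocampal glia, and 0.412 CPM in amyloid beta control and 1019 CPM in untreated cortical glia. Camk2a, the main kinase of excitatory synapses, had 29.0 CPM in amyloid beta control and 5114 CPM in untreated hippocampal glia, and 14.7 CPM in amyloid beta control and 4536 CPM in untreated cortical glia. The scaffold Shank1, the AMPA partners Shisa7 and Cacng3 and the enzyme Gad2 had log2 ratios of -8.08 to -5.81 over both regions.

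N+F lentivirus was compared with the amyloid beta control, which the comparison above also uses. Most members were low in both groups, and 17 of 33 met the 1 CPM minimum in both regions. Gria4 and Gabrb2 were at least 2-fold higher with N+F in both regions and 0 members were lower, beside 2.07% of all genes higher and 0.119% lower. The 17 members' median log2 ratio was -0.075 in hippocampal and 0.15 in cortical glia, and over all genes it was 0.12 and -0.18. TMM scaling moved the hippocampal median of all genes to -0.0099.

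Gria4, an AMPA subunit of interneurons and glial cells, had 4.53 CPM in N+F and 1.37 CPM in amyloid beta control hippocampal glia, and 82.0 CPM in the untreated library. In cortical glia it had 6.04 CPM in N+F, 2.14 CPM in amyloid beta control and 149 CPM in untreated cells. It was 3.32-fold higher in hippocampal (95% counting interval 2.64 to 4.21) and 2.82-fold higher in cortical glia (2.32 to 3.45). Gabrb2 had 2.20 CPM in N+F, 0.468 CPM in amyloid beta control and 223 CPM in untreated hippocampal glia. In cortical glia it had 3.46 CPM in N+F, 0.873 CPM in amyloid beta control and 324 CPM in untreated cells. It was 4.70-fold higher in hippocampal (3.22 to 7.02) and 3.97-fold higher in cortical glia (2.95 to 5.43). Both were higher than the amyloid beta control in each region and far below the untreated level. Grin2d, an NMDA subunit typical of interneurons, lay just outside the rule at log2 ratios of 1.47 and 0.997: it had 4.23 CPM in N+F and 0.883 CPM in amyloid beta control hippocampal glia, and 3.07 CPM in N+F and 1.04 CPM in amyloid beta control cortical glia.

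Among culture data, 13 members had several lines, which were summed. For Gria4 the difference came mainly from 1 of 3 lines, which held 240 counts in N+F and 82 in amyloid beta control hippocampal glia, and 384 in N+F and 109 in amyloid beta control cortical glia. The line with the largest total held 10 counts in N+F and 0 in amyloid beta control hippocampal glia, and 3 in N+F and 16 in amyloid beta control cortical glia, and on that line Gria4 was not called. With the largest line in place of the sum Gria1 was at least 2-fold lower and Grik2 and Grin2d at least 2-fold higher, while Gabrb2 kept its call. The additive edgeR fit called 0 members and 0 of all 16762 genes for N+F, and 6 members and 1156 genes had an unadjusted p under 0.05. Gabrb2 and Gria4 each had an adjusted p of 0.484 in edgeR. Of the 4 further lists, 1 gene was higher by the 2-fold rule and 0 lower, beside 2.07% of all genes higher and 0.119% lower. The minimum was met by 12 auxiliary subunits, 22 scaffold and signalling genes, 15 transport and metabolism genes and 1 other receptor subunit. The gene was Kctd12, a GABA-B auxiliary subunit. It had 64.8 CPM in N+F and 25.3 CPM in amyloid beta control hippocampal glia, and 37.5 CPM in N+F and 0 in amyloid beta control cortical glia.

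The starts of Gria4 and Gabrb2 are shown because these were the members higher with N+F in both regions. Each is the 250 bases before a RefSeq start site on GRCm38.p6, 5′ to 3′, at chr9:4796235-4796484 on the minus strand for Gria4 and chr11:42420190-42420439 on the plus strand for Gabrb2, which has 3 listed starts of which 1 is printed. Capitals mark CCAAT boxes (CCAAT, on either strand) and GC boxes (GGGCGG, on either strand).
Gria4: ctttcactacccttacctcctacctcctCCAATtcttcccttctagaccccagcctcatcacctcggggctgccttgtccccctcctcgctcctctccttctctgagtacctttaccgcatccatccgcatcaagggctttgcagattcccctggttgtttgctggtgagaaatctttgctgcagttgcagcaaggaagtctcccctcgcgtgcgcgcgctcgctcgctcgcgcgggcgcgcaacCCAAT
Gabrb2: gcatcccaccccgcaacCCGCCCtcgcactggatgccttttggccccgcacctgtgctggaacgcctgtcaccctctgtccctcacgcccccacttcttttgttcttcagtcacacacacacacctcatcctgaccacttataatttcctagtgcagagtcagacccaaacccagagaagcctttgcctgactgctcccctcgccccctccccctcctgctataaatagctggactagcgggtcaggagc
Promoter windows of 300 bases were found for 23 of the 33 members, as 30 windows. The NR4A monomer element AAAGGTCA was in 0 of 30 windows on either strand, and in 1.51% of all 32851 mouse windows. The FOXA-type element TGTTTAC was in 0 of 30, and in 3.65% of all. GC boxes were in 16 of 30 member windows and in 35.7% of all.

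**Figure D4:**
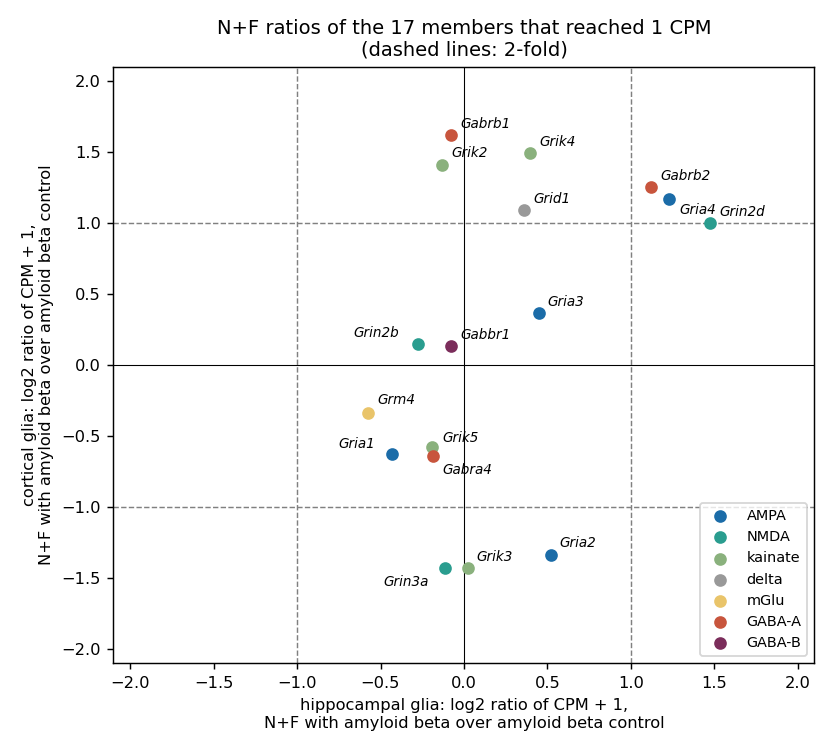
Log2 ratio of CPM + 1, N+F over amyloid beta control, in hippocampal (x axis) and cortical glia (y axis) for the 17 members that met the 1 CPM minimum in both regions; dashed lines mark 2-fold. Gria4 and Gabrb2 lie beyond 2-fold in both, Grin2d lies on the cortical line, and Gria2 lies above 0 in hippocampal and below -1 in cortical glia.

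Some members passed 2-fold with N+F in cortical but not in hippocampal glia, 4 higher and 3 lower of the 17, beside 9.53% of all genes higher and 15.3% lower in that way. In cortical glia Gabrb1, Grik4, Grik2 and Grid1 had log2 ratios of 1.62, 1.49, 1.41 and 1.09, beside -0.075, 0.40, -0.13 and 0.36 in hippocampal glia. Grik3, Grin3a and Gria2 had -1.43, -1.43 and -1.33 in cortical glia, beside 0.022, -0.12 and 0.52 in hippocampal glia. The difference between regions was not tested, and the cortical N+F library also differed in markers of mural cells and fibroblasts, whose 8 genes summed to 7085 CPM in N+F and 494 CPM in amyloid beta control, with Lum and Vtn at 0 in the amyloid beta control. Gabra5 was near 0 in both groups, with 4 counts in N+F and 5 in amyloid beta control hippocampal glia and 7 in N+F and 5 in amyloid beta control cortical glia. Gria3 took 69.6% of AMPA subunit counts in N+F hippocampal glia (95% Wilson interval 68.9 to 70.3%) and 75.9% in N+F cortical glia (75.3 to 76.6%). Grik5 took 91.9% of kainate subunit counts in N+F hippocampal glia (91.3 to 92.4%) and 79.9% in N+F cortical glia (79.2 to 80.7%).

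**Figure D5:**
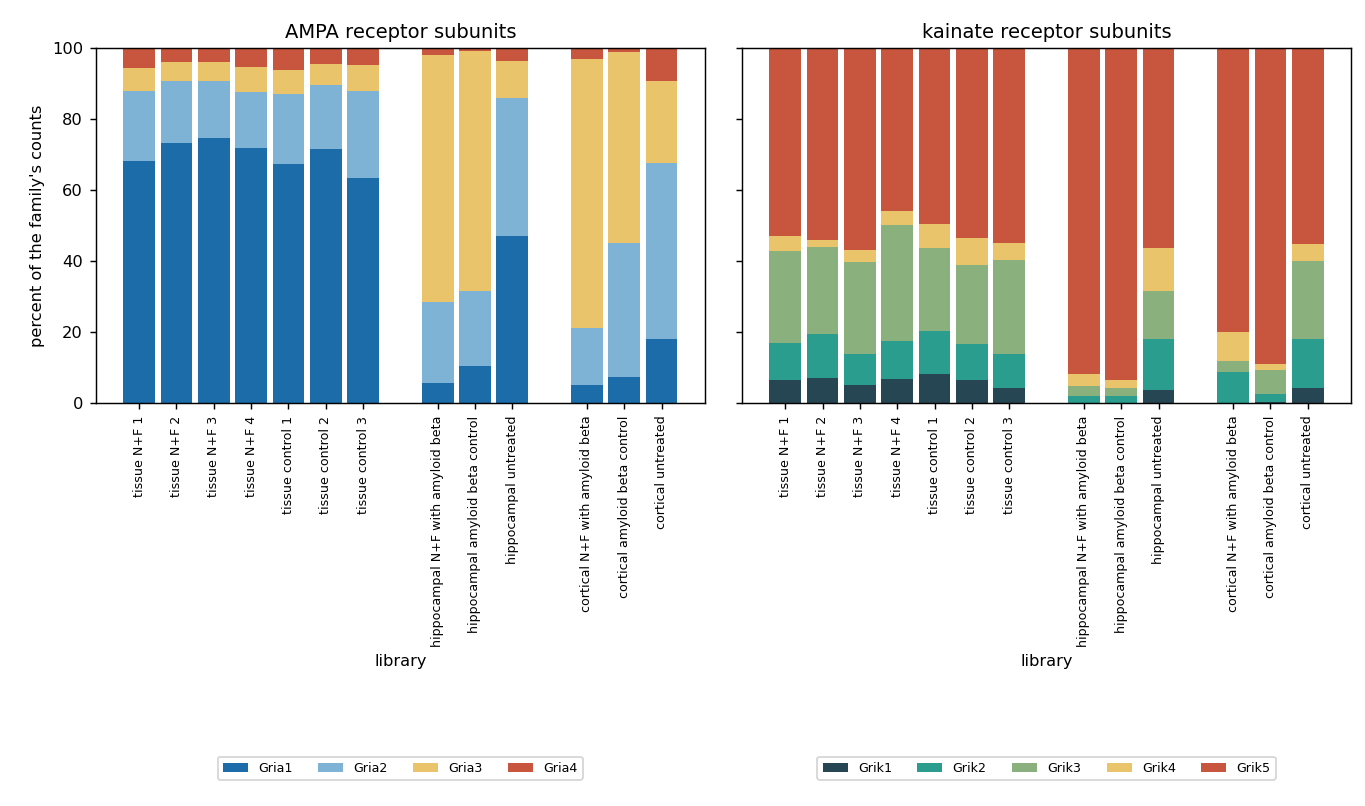
Percent of AMPA (left) and kainate (right) subunit counts taken by each gene in the 7 tissue and 6 culture libraries, not corrected for transcript length. Gria1 leads the AMPA family in all tissue libraries and in untreated hippocampal glia, Gria3 leads it in the N+F and amyloid beta control cultures (53.8% to 75.9%), and Grik5 leads the kainate family in every library.

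Hippocampal and cortical untreated cultures differed in 4 members by at least 2-fold, a comparison added after the data were seen. Gabra5 had 203 CPM in hippocampal and 45.01 CPM in cortical untreated cells, 4.50-fold higher (95% counting interval 4.31 to 4.71). Gria1 had 1065 CPM in hippocampal and 289 CPM in cortical untreated cells, and Grik4 58.6 CPM in hippocampal and 21.0 CPM in cortical untreated cells. Gabrd had 22.8 CPM in hippocampal and 75.4 CPM in cortical untreated cells, and was the member that was lower. Over all genes 3.17% were higher and 2.3% lower by this rule. Of the alpha subunits Gabra2 to Gabra5, Gabra5 took 42.6% of counts in hippocampal (95% Wilson interval 42.0 to 43.1%) and 12.1% in cortical untreated cells (11.7 to 12.6%). The hippocampal untreated library was also higher in CA pyramidal markers, with sums of 1303 CPM in hippocampal and 873 CPM in cortical untreated cells, and 4 of 6 markers at least 2-fold higher. Dentate granule markers summed to 187 CPM in hippocampal and 34.7 CPM in cortical untreated cells, and choroid plexus markers to 4340.4 CPM in hippocampal and 497 CPM in cortical untreated cells. Their part in the values of Gabra5, Gria1 and Grik4 was not tested.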

How the data were processed

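Gene counts were deposited by the authors in 1 table for tissue and 1 for culture; TopHat, HISAT2, edgeR and hg19 are named without version in the submitters' processing notes. As the samples are mouse, the build behind the counts is not established, and the sources used here do not give whether counting used strand. Lines of a symbol were summed: the tissue table has 23282 lines with 44 repeats and that of culture has 36780 lines with 12238 repeats. No column went unused (0), and no batch is labelled.

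Tissue groups were fitted without a block in R 4.3.3 with edgeR 4.0.16 (filterByExpr, TMM, quasi-likelihood test, Benjamini-Hochberg adjustment). DESeq2 1.42.0, other scaling, no low-count filter, a single line per symbol, a replicate block and leaving out each library were the alternatives. Deviations of log CPM from the group mean, over genes, correlated at -0.0013, -0.083 and 0.13 between same-numbered N+F and control libraries. Between libraries of different number these correlations ran from -0.18 to 0.12, so the numbers were not taken as pairs. Culture ratios used CPM with a pseudocount of 1, a minimum of 1 CPM and a 2-fold threshold, in the same R and edgeR. Line sums, shares, levels per kilobase and promoter windows were computed in Python 3.11.15 with numpy 2.4.6, pandas 2.3.3 and scipy 1.17.1. Figures used matplotlib 3.10.9. Intervals (exact conditional binomial for ratios, Wilson for shares, both at 95%) and floors of 3 counts cover counting error only. Transcript lengths came from the GENCODE mouse annotation and promoters from RefSeq.

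The members, lists and tests were chosen with earlier results of these data known. Values per library are given for members with an unadjusted p under 0.05 in tissue, for the most abundant of each family, and in culture for up to 3 members per direction with the largest ratios. Of each further list, the 2 genes with the smallest p in tissue and the 2 with the largest ratio in culture are named, except some that are not reported here. Other members named with values, among them Gria2, Gabrd, Gabrg3, Gria3, Grik5, Grin2d and Gabra5 in culture, were chosen after their values were seen. Replicate libraries differed beyond sampling noise, with chi-square values of 15.0 to 56.1 per gene.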

Additional observations from a re-analysis of the deposited data

Results flagged for a closer look

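Among members, 4 had 1 N+F tissue library far from the other 3, by Dixon's criterion for 4 samples, among 33 member groups examined. For independent normal values chance flags about 1 in 20 such groups, and the share over all genes tested was not computed. Grin1 was lowest in N+F library 4, at 159.9 CPM. Grid1 was lowest in N+F library 1, at 22.3 CPM. Gabra2 was highest in N+F library 3, at 237 CPM. Gabrg1 was lowest in N+F library 2, at 13.6 CPM, and that library was still above all 3 controls.

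Gria2 moved in opposite directions with N+F in the culture regions: its log2 ratio, N+F over amyloid beta control, was 0.52 in hippocampal and -1.33 in cortical glia. With 1 library per condition the difference was not tested.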

How the results depend on the processing

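Of the receptor members, 1 was called in tissue, and leaving out 1 library in turn gave 0 to 1. The count over all genes was 17, and it was 29 with no filter on low counts, 147 with DESeq2 (69 higher and 78 lower in N+F), and 0 to 29 with 1 library left out. DESeq2 called 1 gene of the further lists. With the replicate block, which leaves out N+F library 4 for want of a partner, 0 members and 0 genes were called by edgeR, with 1541 genes at an unadjusted p under 0.05; Gabra5 had -1.14 (adjusted p = 0.0780) and Gabbr1 -0.033. Small values changed sign with 1 library left out: Grik5 ranged from -0.049 to 0.13, Gabra2 from -0.018 to 0.15 and Gabbr1 from -0.11 to 0.15. Gabra5, Grin2a, Grik4, Gabbr2, Gabrg1, Gria1, Grin1 and Grm5 kept their direction in the 13 alternatives run. In culture, the N+F comparison counted 4 members (3 higher, 1 lower) with the line of the largest total per symbol and 0 in the additive edgeR fit. The untreated hippocampal and cortical libraries differed in 10 members at 1.5-fold. The causes were not tested. Tissue depth limits Gabrg3 and Grin2a, and 1 library per culture condition limits every culture ratio.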
